A study of Mus musculus with 9 samples.

Results

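Apobec3, Cbx6 and Cbx7 lie close together on mouse chromosome 15, and their transcripts were read in regulatory T cells of mice in which CBP or p300 was targeted for deletion. The genes were taken by the symbol that the array platform gives their probe sets, which finds 4 of 22626 probe sets and 3 of the 12393 genes measured. They were picked because Apobec3 differed from control in opposite directions after the 2 deletions and because Cbx6 and Cbx7 differed between the deletions. All 3 comparisons therefore served to choose them, and their differences are given as a description with no test.

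The arrays hold RNA of CD4+CD25+ Treg cells that were separated magnetically from C57Bl/6 mice. There were 3 arrays of fl-CBP/Foxp3cre mice (CBP-deleted), 3 of fl-p300/Foxp3cre mice (p300-deleted) and 3 of mice with Foxp3cre alone, also labelled wild type (control). All 3 groups are labelled Foxp3cre, in which Cre is driven from Foxp3 and deletion is aimed at cells that express Foxp3, and the 3 samples of a group are described as independent. The labels give neither the animals' age nor whether animals were pooled.

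CBP and p300 are related acetyltransferases that acetylate histones and other proteins at promoters and enhancers. Apobec3 encodes a cytidine deaminase that restricts retroviruses in mouse lymphoid cells, and inbred strains carry alleles of it that differ in transcript level. Cbx6 and Cbx7 encode chromobox subunits of Polycomb repressive complex 1, which bind histone H3 trimethylated at lysine 27; Cbx7 is known for repressing the Cdkn2a locus.

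The promoter windows of the 3 genes are shown because the genes are neighbours whose levels differed together between the deletions. In the NCBI RefSeq annotation 1 gene lies between Cbx6 and Apobec3, and 0 lie between Apobec3 and Cbx7. The windows run 5′ to 3′ on the gene's own strand, from 250 bases before to 50 bases after an annotated start, in build GRCm38.p6. Cbx6 has 1 window, on the minus strand at chr15:79834284-79834583. Apobec3 has 2 windows, on the plus strand at chr15:79892158-79892457 and chr15:79894773-79895072. Cbx7 has 1 window, on the minus strand at chr15:79932597-79932896. Capitals mark letters of the motifs searched on both strands, which were the full CRE (TGACGTCA), the short CRE (TGACG), the GC box (GGGCGG), the ETS core (CCGGAA), the E-box (CACGTG) and the TATA box (TATAAA).
Cbx6 window: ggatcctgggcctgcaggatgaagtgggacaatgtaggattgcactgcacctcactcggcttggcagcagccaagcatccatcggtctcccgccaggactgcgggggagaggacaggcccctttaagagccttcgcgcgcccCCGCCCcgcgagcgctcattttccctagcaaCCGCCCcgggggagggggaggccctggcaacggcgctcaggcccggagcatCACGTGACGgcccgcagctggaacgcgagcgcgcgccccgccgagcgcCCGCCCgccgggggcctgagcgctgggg
Apobec3 first window: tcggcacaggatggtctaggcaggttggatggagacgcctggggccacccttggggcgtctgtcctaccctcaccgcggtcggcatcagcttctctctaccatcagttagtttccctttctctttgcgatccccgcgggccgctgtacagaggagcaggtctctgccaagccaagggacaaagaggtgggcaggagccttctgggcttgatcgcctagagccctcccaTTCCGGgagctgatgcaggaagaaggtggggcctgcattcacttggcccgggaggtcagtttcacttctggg
Apobec3 second window: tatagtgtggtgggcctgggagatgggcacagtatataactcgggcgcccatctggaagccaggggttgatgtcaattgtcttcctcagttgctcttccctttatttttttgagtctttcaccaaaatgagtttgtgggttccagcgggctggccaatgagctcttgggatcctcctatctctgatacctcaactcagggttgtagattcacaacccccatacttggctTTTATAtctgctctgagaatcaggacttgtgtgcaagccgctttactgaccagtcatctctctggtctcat
Cbx7 window: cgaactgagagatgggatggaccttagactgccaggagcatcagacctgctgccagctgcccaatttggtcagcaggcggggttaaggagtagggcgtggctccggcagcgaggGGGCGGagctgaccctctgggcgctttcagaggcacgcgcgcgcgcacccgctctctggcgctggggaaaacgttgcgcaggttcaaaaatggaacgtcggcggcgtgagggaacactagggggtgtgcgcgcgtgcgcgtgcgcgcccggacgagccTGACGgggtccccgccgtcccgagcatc
The full CRE, to which the CBP-binding factor CREB is known to bind, is in none of these 4 windows and in 1.79% of the 32851 promoter windows of the RefSeq table. The short CRE is in the Cbx6 and Cbx7 windows and in 20.8% of all windows, and in Cbx6 it overlaps an E-box, which 7.15% of all windows hold. GC boxes are also in the Cbx6 and Cbx7 windows and in 35.7% of all windows. The first Apobec3 window holds an ETS core, found in 14.9% of all windows. The second holds the TATA box letters on the opposite strand only, as TTTATA, and 13.6% of all windows hold them on either strand. The Cbx6 and Cbx7 windows have 31 and 33 CpG dinucleotides, more than 89.4% and 91.4% of all promoters, while the Apobec3 windows have 13 and 4, more than 62.1% and 31.4%. These are letters in a window only, and binding was not measured here.

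Apobec3 was highest in CBP-deleted cells, lowest in p300-deleted cells and between them in controls. On the log2 scale of the deposited values its probe set 1417470_at read 9.23, 9.33 and 9.39 on the CBP-deleted arrays. It read 6.88, 6.67 and 6.94 on the p300-deleted arrays, and 8.71, 7.34 and 8.48 on the control arrays. No array of any group fell within the range of another group, and control replicate 2 stood apart from the other controls towards the p300-deleted arrays. The means were 9.32 ± 0.08 in CBP-deleted cells, 6.83 ± 0.14 in p300-deleted cells and 8.17 ± 0.73 in controls (SD, n = 3 each). Apobec3 was thus 1.14 higher on the log2 scale in CBP-deleted cells than in controls (SE 0.26), a 2.21-fold difference, with a gap of 0.52 between the nearest arrays. In p300-deleted cells it was lower than in controls by 2.54-fold (log2 difference -1.34, SE 0.26), with a gap of 0.40. Between the deletions the log2 difference, CBP-deleted minus p300-deleted, was 2.49 (SE 0.26), or 5.61-fold. It was the largest positive difference of all 12393 genes in that comparison.

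Cbx7 had the same order of groups as Apobec3. Its brighter probe set, 1420039_s_at, read 6.21, 5.71 and 5.70 on the CBP-deleted arrays, 3.73, 3.60 and 3.86 on the p300-deleted arrays, and 5.24, 4.08 and 5.46 on the control arrays. The groups did not overlap, and control replicate 2 was again nearest to the p300-deleted arrays. The means were 5.88 ± 0.29, 3.73 ± 0.13 and 4.93 ± 0.74 in CBP-deleted, p300-deleted and control cells (SD, n = 3 each). The log2 difference was 0.95 (SE 0.29) for CBP-deleted minus control and -1.20 (SE 0.29) for p300-deleted minus control. CBP-deleted cells stood 2.15 above p300-deleted cells (SE 0.29), a 4.43-fold difference and the second largest positive one of all genes measured. The p300-deleted arrays read above only 28.2% to 32.0% of all probe sets, and whether this is above background is not given, so the fold and the rank are of the deposited values only and the exact fold is uncertain. The other Cbx7 probe set, 1449713_at, was dimmer still. It read 4.22, 3.93 and 3.35 on the CBP-deleted arrays, 2.66, 2.90 and 3.16 on the p300-deleted arrays, and 4.06, 2.75 and 3.66 on the control arrays. Its differences pointed the same way but were smaller, at 0.34 for CBP-deleted minus control, -0.59 for p300-deleted minus control and 0.93 for CBP-deleted minus p300-deleted (SE 0.30 each). On this second probe set the CBP-deleted arrays overlapped the controls, and so did the p300-deleted arrays.

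Cbx6 was higher in CBP-deleted cells than in both other groups, and its p300-deleted and control arrays overlapped. Probe set 1424407_s_at read 8.54, 8.42 and 8.47 on the CBP-deleted arrays, 7.54, 7.37 and 7.64 on the p300-deleted arrays, and 7.97, 7.09 and 8.12 on the control arrays. Control replicate 2 lay below every p300-deleted array, and the other controls lay above them. The means were 8.48 ± 0.06 in CBP-deleted cells, 7.52 ± 0.14 in p300-deleted cells and 7.73 ± 0.56 in controls (SD, n = 3 each). The log2 difference was 0.75 (SE 0.21) for CBP-deleted minus control and 0.96 (SE 0.21) for CBP-deleted minus p300-deleted, or 1.68-fold and 1.94-fold. For p300-deleted minus control it was -0.21 (SE 0.21), within the spread of the controls. Between CBP-deleted and p300-deleted cells all 3 genes therefore pointed the same way, and Cbx6 differed least.

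**Figure D1:**
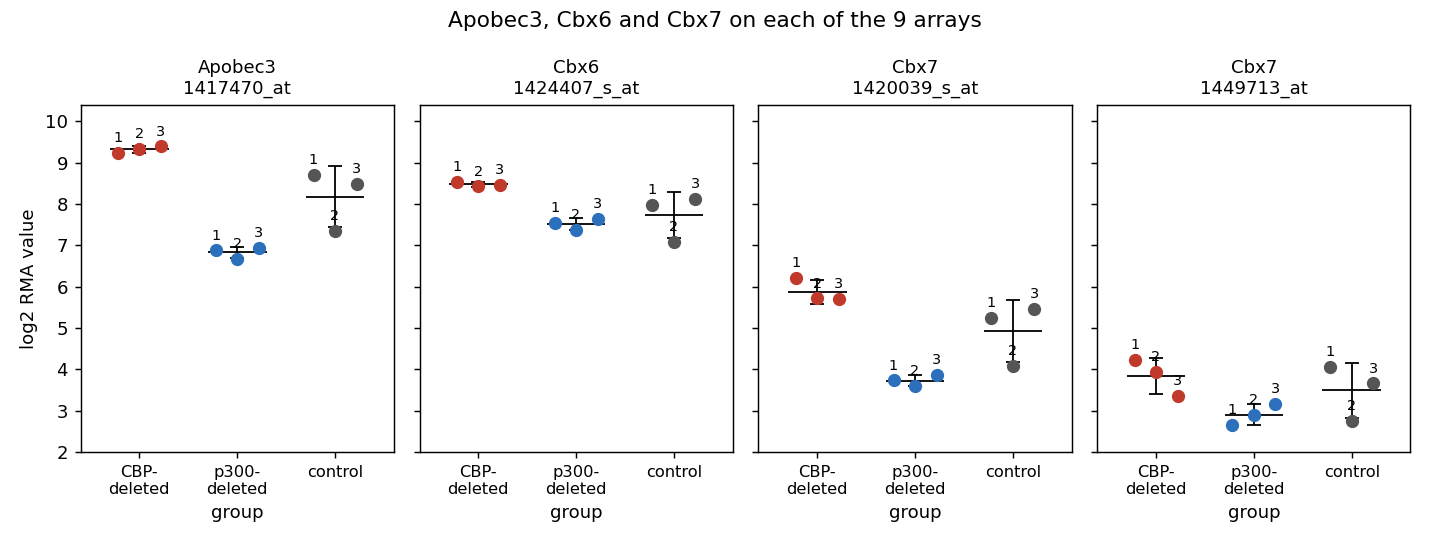
Log2 RMA value (vertical axis) of the 4 probe sets on each of the 9 arrays, by group. Points are arrays numbered by replicate, lines are group means and bars are SD (n = 3 each). Control replicate 2 is the lowest control in every panel, and on 1417470_at the CBP-deleted arrays lie between 9.23 and 9.39, above all others.

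Of the 3 genes, 1 (Apobec3) passed an adjusted p of 0.05 in the limma fit over all genes as higher in CBP-deleted cells than in controls, where 2.14% of all genes passed as higher and 2.79% as lower. In p300-deleted cells 2 of the 3 (Apobec3 and Cbx7) passed as lower than in controls, where 2.04% of all genes passed as lower and 2.02% as higher. All 3 passed as higher in CBP-deleted than in p300-deleted cells, where 3.20% of all genes passed as higher and 2.01% as lower. Arrays did not overlap for 24.4%, 20.3% and 30.1% of all genes in the 3 comparisons, given in the same order. Nothing is read from these counts, because the genes were chosen from the same comparisons. Over all genes 3, Tpi1, Cenpv and Apobec3, passed as higher than control after CBP deletion and as lower than control after p300 deletion. The opposite way 1 gene, Ighm, passed. Apobec3 was picked for this pattern, so its place among them is not a result. Both comparisons use the same controls.

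A single array set much of the spread of these genes among controls. Control replicate 2 lay below the nearer of the other controls by 1.14 for Apobec3, 0.88 for Cbx6 and 1.16 for Cbx7, on the log2 scale. Among all 12393 genes these distances ranked 13, 36 and 9. The range over the 3 controls was 1.37 for Apobec3, 1.03 for Cbx6 and 1.38 for Cbx7, against a median of 0.30 over all genes. Over the CBP-deleted arrays the range was 0.16 for Apobec3, 0.11 for Cbx6 and 0.50 for Cbx7, and over the p300-deleted arrays it was 0.26, 0.28 and 0.26 for the same genes. Control replicate 2 was not low in general: it was the lowest control for 30.6% of genes and for 12 of the 40 genes around Apobec3, none of them by more than 0.36. It was at least 1 lower than both other controls for 23 genes, against 2 genes for control replicate 1 and 3 for control replicate 3. At a distance of at least 0.5 it was the low control for 211 genes, against 47 for control replicate 1 and 184 for control replicate 3. The genes farthest below were S100a8, a neutrophil calcium-binding protein, at 2.06, and Tnfaip3, an inhibitor of NF-kB signalling, at 2.06, both named after their values were seen. Malat1, a nuclear RNA, was 1.22 lower there. What sets control replicate 2 apart was not tested.

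Without control replicate 2 the values moved in one direction for all 3 genes. CBP-deleted minus control became 0.73 for Apobec3, 0.43 for Cbx6 and 0.53 for Cbx7 on the log2 scale. For p300-deleted minus control the values became -1.76 for Apobec3, -0.53 for Cbx6 and -1.62 for Cbx7. For Cbx6 the difference between p300-deleted cells and controls was -0.09 without control replicate 1 and -0.01 without control replicate 3. The differences between CBP-deleted and p300-deleted cells do not use the controls and were as large without this one. Their SEs do use the controls, because the spread is pooled over all groups. Without control replicate 2 these SEs went from 0.26 to 0.10 for Apobec3, from 0.21 to 0.09 for Cbx6 and from 0.29 to 0.15 for Cbx7.

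The sort check of the arrays by Treg and CD4 T cell markers gave 1 large departure. Foxp3, the factor that defines Treg cells, averaged 2.87 ± 0.12 in CBP-deleted cells and 2.95 ± 0.32 in p300-deleted cells, against 9.60 ± 0.14 in controls (log2, SD, n = 3 each). The limma adjusted p values were 4.07e-10 and 4.66e-10 for the CBP-deleted and p300-deleted comparisons. Whether all groups carry the same Foxp3cre allele, and which stretch of the transcript this probe set reads, are not given in the sources used here. The Foxp3 difference goes with both comparisons with control, and its part in the Apobec3, Cbx6 and Cbx7 values there was not tested. Il2ra, which encodes CD25, differed by 0.04 and 0.24 in those comparisons (adjusted p = 0.879 and 0.324). Crebbp, the CBP gene, averaged 7.20 ± 0.13 in CBP-deleted cells and 7.56 ± 0.10 in p300-deleted cells, against 7.53 ± 0.16 in controls. Its differences from control were -0.33 (adjusted p = 0.123) and 0.03 (adjusted p = 0.930), and whether this probe set reads the deleted stretch is not known here. The 10 Treg and CD4 T cell markers, Foxp3 included, summed to 13.7 to 13.8 on the CBP-deleted arrays, 13.94 to 14.01 on the p300-deleted arrays and 13.8 to 13.9 on the control arrays (log2 of the sum). The brightest markers weigh most in such a sum. Against controls, 1 of the 10 passed as higher and 2 as lower in CBP-deleted cells, and 2 as higher and 1 as lower in p300-deleted cells. Between the deletions 2 passed, both lower in CBP-deleted cells. Over all genes 4.93%, 4.06% and 5.20% passed in these comparisons. The p300 gene was not analysed here. Replicate arrays correlated at 0.9897 to 0.9974 within groups, lowest between control replicates 2 and 3. Arrays of different groups correlated at 0.9874 to 0.9938, so these ranges overlap.

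Markers of other cells differed between the groups in which Apobec3 and Cbx7 differed. The summed level of 10 measured B cell markers was 9.09 to 9.63 on the CBP-deleted arrays, 9.38 to 10.1 on the p300-deleted arrays and 9.99 to 10.2 on the control arrays (log2 of the sum). Over all genes 4.93%, 4.06% and 5.20% passed in either direction for CBP-deleted minus control, p300-deleted minus control and CBP-deleted minus p300-deleted, and the marker counts are to be read against these shares. Of the 10 B cell markers, 4 were lower in CBP-deleted cells and 1 in p300-deleted cells than in controls, and 0 passed between the deletions. The 6 plasma cell markers summed to 12.4 to 12.7 on the CBP-deleted arrays, 13.3 to 13.6 on the p300-deleted arrays and 12.4 to 12.6 on the control arrays. In p300-deleted cells 4 of the 6 were higher than in controls, and in CBP-deleted cells 4 were lower than in p300-deleted cells. Mast cell and basophil markers, 8 in all, summed to 8.06 to 9.16, 9.06 to 9.84 and 8.14 to 8.22 on CBP-deleted, p300-deleted and control arrays, and 5 of them were higher in p300-deleted cells than in controls. The 13 neutrophil and myeloid markers summed to 9.50 to 12.2, 9.81 to 11.8 and 8.39 to 9.51 on the same 3 groups of arrays, and 2 were higher in p300-deleted cells than in controls. The 9 measured CD8 T cell and NK cell markers summed to 10.52 to 11.01, 11.1 to 11.4 and 10.8 to 11.1 on these arrays, of which 2 passed as higher than control after CBP deletion and 1 after p300 deletion. Arrays give no value of 0, and the lowest marker reading was 2.38, for Ebf1. In bulk RNA, fewer cells of a type and less RNA per cell cannot be told apart, and the part of these cells in the Apobec3, Cbx6 and Cbx7 values was not tested.

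Of the 20 measured genes on each side of Cbx6, Apobec3 and Cbx7, 0 were higher and 4 of 40 (10%) were lower in CBP-deleted cells than in controls, where 4.93% of all genes passed in either direction. In p300-deleted cells 1 of 40 (2.5%) was lower than in controls, against 4.06%, and 1 (2.5%) was higher in CBP-deleted than in p300-deleted cells, against 5.20%. Their median log2 difference was -0.04, -0.09 and 0.07 in the 3 comparisons, and that of all genes was -0.03, -0.02 and -0.02. The measured gene next to Cbx6 is Dnal4, a dynein light chain, and its differences were -0.01 for CBP-deleted minus control and 0.32 for p300-deleted minus control (adjusted p = 0.979 and 0.144). Beyond Cbx7 the next measured gene is Pdgfb, a growth factor, at 0.08 and 0.00 in those comparisons (adjusted p = 0.810 and 0.997). Of the nearest 3 measured genes on each side, which also include Sun2, Gtpbp1, Syngr1 and Tab1, 0 passed in any comparison.

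The neighbours that passed lay 8 to 19 measured genes away. Lower in CBP-deleted cells than in controls were Tnrc6b, of the microRNA silencing machinery (-0.45, adjusted p = 0.0466), and Mrtfa, a coactivator of serum response factor (-0.42, adjusted p = 0.0315). Tef, a bZIP transcription factor (-0.42, adjusted p = 0.0332), and Tob2, an antiproliferative protein (-0.53, adjusted p = 0.0301), were lower too. Rangap1, which activates the Ran GTPase, was lower in p300-deleted cells than in controls (-0.50, adjusted p = 0.0448), and Eif3l, a translation initiation subunit, was higher in CBP-deleted than in p300-deleted cells (0.32, adjusted p = 0.0215). Each of these 6 calls was lost without CBP-deleted replicate 1, 2 or 3 taken singly, and the highest adjusted p over a gene's alternatives was 0.118 for Tob2 and up to 0.390, for Eif3l. The p300 gene itself lies on the same chromosome, with 51 annotated genes between it and Apobec3, 16 of them measured. The CBP gene lies on chromosome 16.

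**Figure D2:**
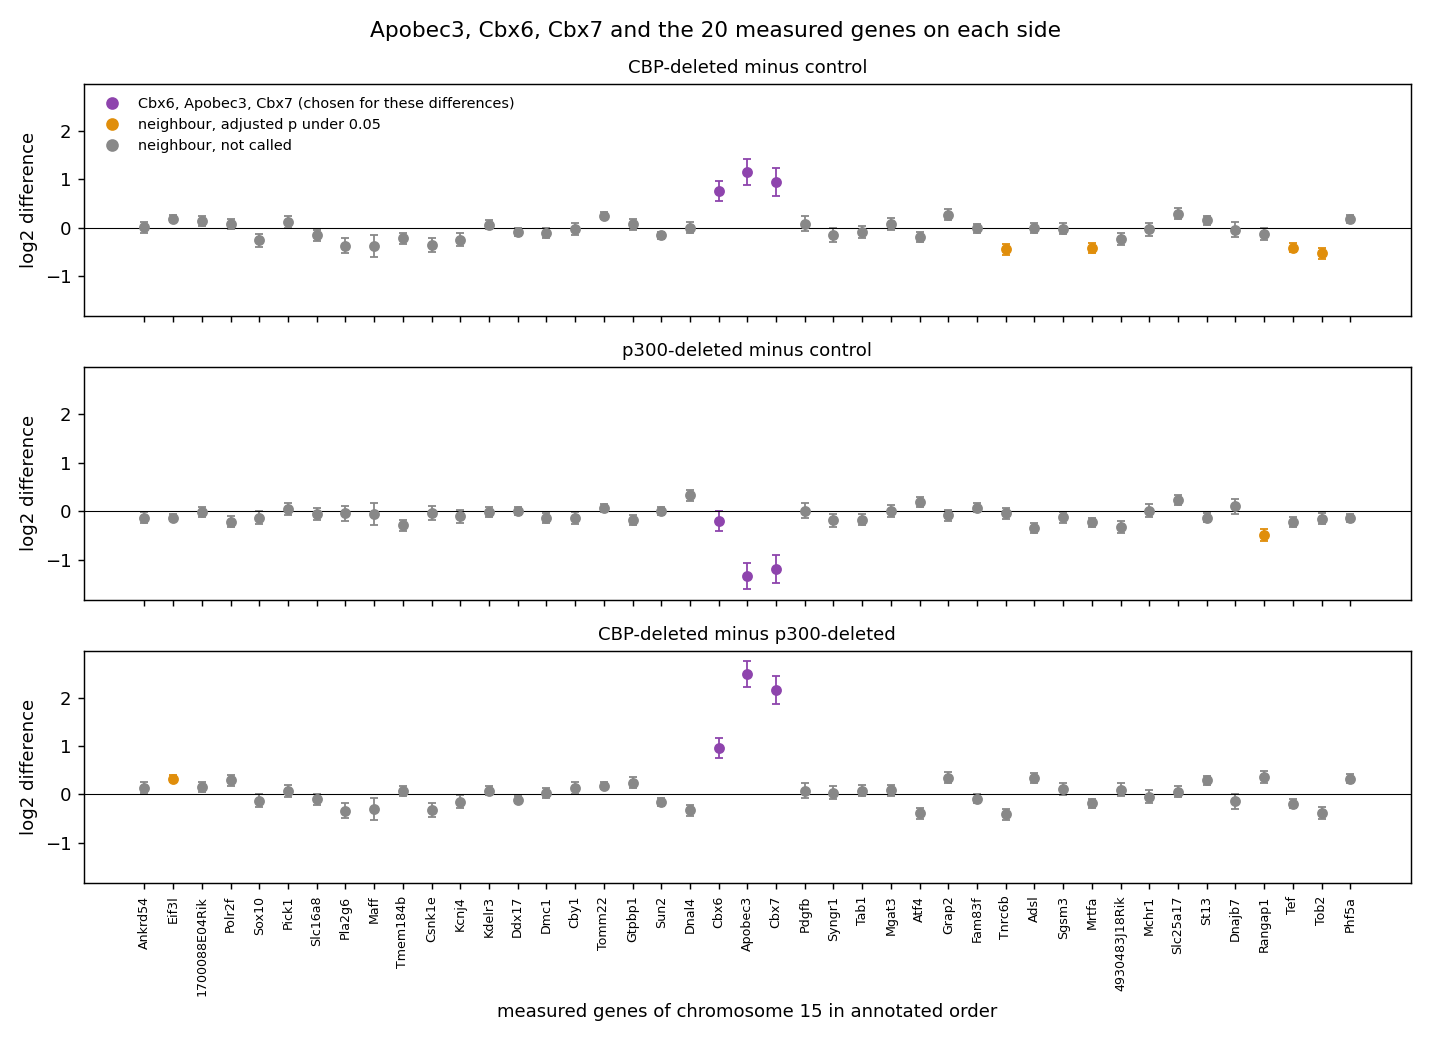
Log2 difference (vertical axis, bars are SE of the fit) of Cbx6, Apobec3, Cbx7 and the 20 measured genes on each side, in the annotated order of chromosome 15, in 3 comparisons. Apobec3 and Cbx7 stand above all neighbours in the bottom panel, at 2.49 and 2.15, and orange points mark the neighbours with an adjusted p under 0.05.

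The 9 arrays were also searched for genes whose profile, centred on its own mean, came closest to each of the 3 genes by root mean square difference. Cbx7 lay 0.25 from Apobec3, whose own profile had a root mean square of 1.08. The closest of 7350 candidates with a mean of at least 5 were farther away, Bub1 at 0.47, Ttk and Birc5 at 0.48, and Stil and Spag5 at 0.50. Cbx7, with a mean of 4.84, is below that limit and was set beside them only as a member. For Cbx7 the order was Apobec3 at 0.25, then Spag5, Bub1, Stil and Birc5. For Cbx6 the closest were Slc25a13 at 0.15, Psat1 at 0.17, Mtm1 and Zwilch at 0.21 and Hmgb3 at 0.23. Cbx6 lay 0.66 from Apobec3 and 0.54 from Cbx7. Its own root mean square was 0.49, against 0.96 for Cbx7. The profiles were not scaled, so these distances count differences in size as well as in shape. Whether Cbx6 differs from Apobec3 and Cbx7 in shape is not read from them. None of these closest genes apart from Apobec3 itself is on chromosome 15. The 9 points fall in 3 groups and share their arrays, so the distances describe these arrays only. The 3 genes were also picked for their differences on these arrays, so nothing is read from their closeness to each other.

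**Figure D3:**
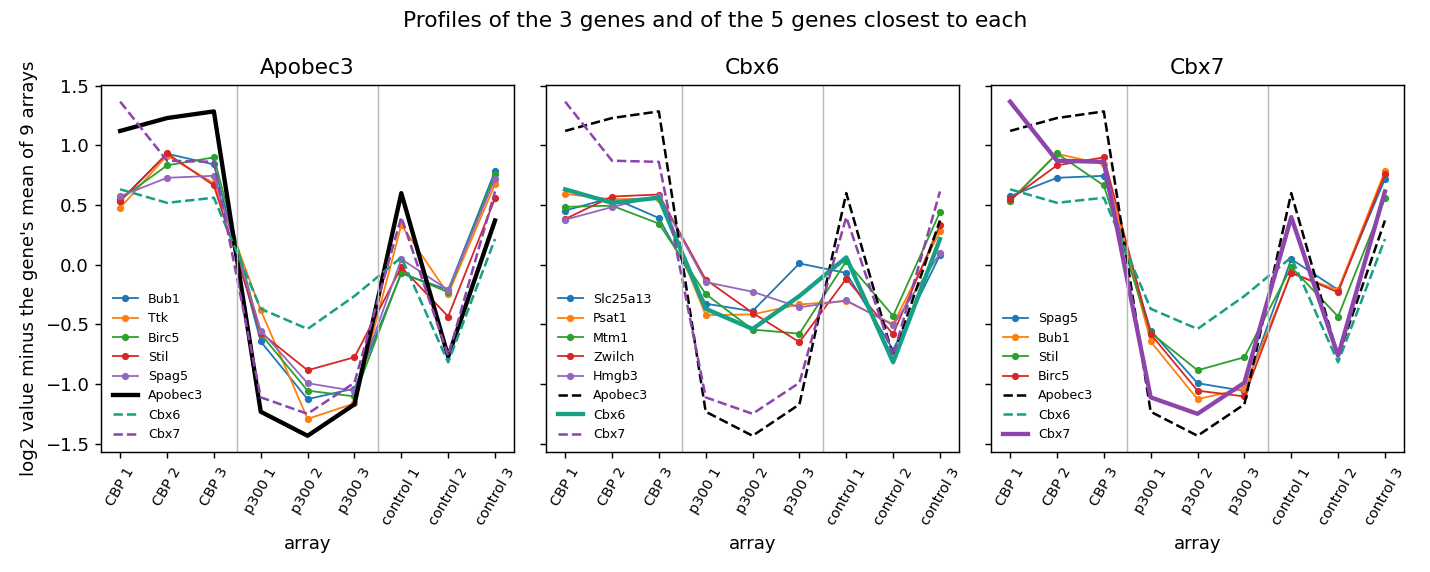
Log2 value minus the gene's mean over 9 arrays (vertical axis) for each array, with groups separated by grey lines. Each panel shows 1 of the 3 genes as a thick line, the other members dashed, and its closest genes thin. Apobec3 and Cbx7 are both lowest among controls on control replicate 2.

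Of 34 other listed genes of the Polycomb complexes 26 were measured, and between 1 and 2 passed the test in each comparison. In CBP-deleted cells 2 (7.69%) were lower than in controls, where 4.93% of all genes passed in either direction. In p300-deleted cells 1 (3.85%) was higher than in controls, against 4.06% of all genes, and 2 (7.69%) differed between the deletions, against 5.20%. The median log2 differences of the 26 were -0.05, -0.01 and -0.08, beside -0.03, -0.02 and -0.02 for all genes. The chromobox paralogues Cbx2 and Cbx8, which can take the same place in the complex, did not pass in any comparison. Cbx2 gave -0.14 for CBP-deleted minus control and -0.29 for p300-deleted minus control, and Cbx8 gave -0.27 and -0.08. Of the chromobox proteins of heterochromatin, which bind methylated lysine 9, Cbx1, Cbx3 and Cbx5 did not pass in any comparison, with differences between -0.29 and 0.37.

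The Polycomb genes that passed belong to both repressive complexes. Ezh2, the methyltransferase of complex 2, read 9.63, 9.84 and 9.86 on CBP-deleted arrays and 9.21, 9.18 and 9.09 on p300-deleted arrays. It was higher in CBP-deleted than in p300-deleted cells by 0.61 (SE 0.12, limma adjusted p = 0.0108), a call lost without CBP-deleted replicate 2 or 3 (highest adjusted p over 16 alternatives 0.0644). Phf1, an accessory subunit of complex 2, was lower in CBP-deleted than in p300-deleted cells (-0.67, SE 0.12, adjusted p = 0.00674), in all 16 alternatives. It was also lower in CBP-deleted cells than in controls (-0.49, adjusted p = 0.0349). Pcgf2, a RING partner in complex 1, was lower in CBP-deleted cells than in controls (-0.57, SE 0.13, adjusted p = 0.0326), and Bmi1, its paralogue, was higher in p300-deleted cells than in controls (0.72, SE 0.15, adjusted p = 0.0250). The last 3 calls were lost with only the arrays of the 2 groups and without several single arrays, control replicate 1 among them. Adjusted p reached 0.150 for Phf1, 0.129 for Pcgf2 and 0.117 for Bmi1.

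Among 7 inhibitors of cyclin-dependent kinases, which include the known Polycomb targets at the Cdkn2a locus, 1 (14.3%) passed in p300-deleted cells against controls, where 4.06% of all genes passed. Cdkn1b was higher in p300-deleted cells than in controls by 1.34 (SE 0.26, adjusted p = 0.0202), and it was 0.97 higher in CBP-deleted cells than in controls (adjusted p = 0.0598). The p300 call was lost without p300-deleted replicate 1 or 2 or control replicate 1, and with only the arrays of the 2 groups. It was also lost with the mean of its probe sets, where the difference was 0.50 (highest adjusted p 0.164). Cdkn2a, the locus Cbx7 is known to repress, differed by 0.25 for CBP-deleted minus control and -0.46 for p300-deleted minus control (adjusted p = 0.561 and 0.279). Cdkn2b differed by -0.03 and -0.72 (adjusted p = 0.969 and 0.149).

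Apobec3 was set beside the other listed deaminases and genes of retroviral restriction, of which 21 were measured. In CBP-deleted cells 1 of them (4.76%) was lower than in controls, against 4.93% of all genes called in either direction. In p300-deleted cells 2 (9.52%) were higher than in controls, against 4.06%, and 1 (4.76%) was lower in CBP-deleted than in p300-deleted cells, against 5.20%. Their median log2 differences were 0.24, 0.22 and -0.04 in the 3 comparisons, beside -0.03, -0.02 and -0.02 for all genes. Apobec2, a family member without established deaminase activity, read 4.0, 4.16 and 4.23 on the CBP-deleted arrays, 5.17, 5.29 and 5.49 on the p300-deleted arrays, and 5.40, 5.27 and 5.34 on the control arrays. The CBP-deleted arrays lay below all others, the opposite side from Apobec3, and the other groups overlapped. Apobec2 was lower in CBP-deleted cells than in controls by 1.21 (log2 difference -1.21, SE 0.12, adjusted p = 0.000886) and than in p300-deleted cells (-1.19, adjusted p = 0.00108). Both calls held in 15 of 15 alternatives. Apobec1, which edits apolipoprotein B mRNA, read 6.89, 6.87 and 7.04 on the CBP-deleted arrays, 7.55, 7.22 and 7.03 on the p300-deleted arrays, and 6.57, 6.22 and 6.82 on the control arrays. It was higher in p300-deleted cells than in controls by 0.73 (SE 0.16, adjusted p = 0.0314), and in CBP-deleted cells its difference of 0.40 did not pass (adjusted p = 0.191). The call held in 9 of 16 alternatives. It was lost without either of replicates 1 and 2 of any group and with only the arrays of the 2 groups (highest adjusted p 0.111). Slfn2, a Schlafen family member, was higher in p300-deleted cells than in controls by 0.56 (SE 0.11, adjusted p = 0.0214). That call was lost without p300-deleted replicate 2 or 3 and with only the arrays of the 2 groups (highest adjusted p 0.0995).

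**Figure D4:**
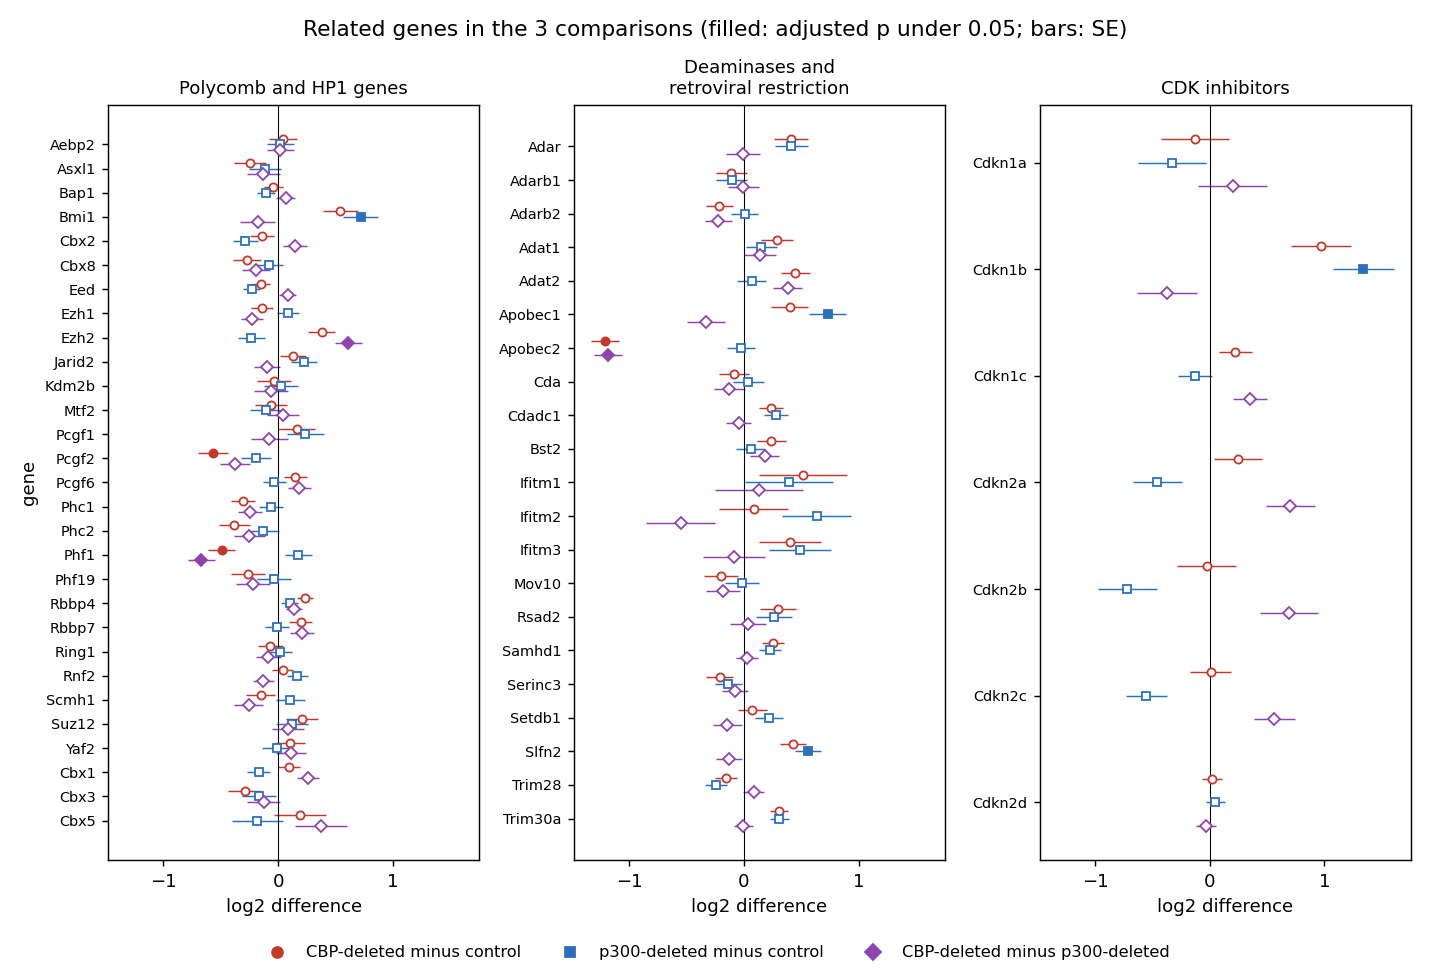
Log2 difference (horizontal axis, bars are SE of the fit) of Polycomb and heterochromatin genes, deaminases and restriction genes, and inhibitors of cyclin-dependent kinases. Colours and shapes mark the 3 comparisons, and filled points have an adjusted p under 0.05. Apobec2 stands farthest left among the deaminases, at -1.21 for CBP-deleted minus control.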

How the data were processed

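The deposited values are log2 expression per probe set of a single-channel Affymetrix array; the authors made them with RMA, per the submitters' processing notes, and its version and settings are not given in the sources used here. Per the labels' protocols, 100 ng of total RNA was amplified and labelled with biotin. Values were used as deposited. Of 22690 probe sets 64 controls were left out; symbols come from GEO's platform annotation (20380 probe sets with 1 symbol, 691 with several, 1555 with none), and 24 of 12393 genes had no match in the RefSeq annotation of GRCm38.p6. A gene is its probe set with the highest mean over 9 arrays. All genes were fitted with limma 3.58.1 in R 4.3.3 (lmFit, eBayes with trend, 1 mean per group, all 9 arrays, two-sided), with Benjamini-Hochberg adjustment over all genes at 0.05; the script was tested on simulated data. SEs are from this fit. SEs and p-values rest on 1 spread per gene, pooled over the samples within all 3 groups and adjusted towards that of other genes. They do not measure the spread of only the 2 groups compared, and 3 arrays a group limit the precision.

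The genes and the lists were chosen with earlier results of these data known. Named are the 3 genes, the neighbours that passed and the nearest 3 on each side, up to 6 list members that passed (otherwise up to 2 by size, not all of which are printed), the other CBX genes, the 5 closest profiles per gene, and Foxp3, Crebbp and Il2ra. Alternatives were other probe set summaries, a filter on mean log2 of at least 5, other scalings and fits, and leaving out each array. Sequences are from the RefSeq promoter table, which held 3 of 3 genes.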

Additional observations from a re-analysis of the deposited data

How the results depend on the processing

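Over 135 alternative values of the differences of Apobec3, Cbx6 and Cbx7, 131 moved by no more than 1 residual SD of the fit over 9 arrays (0.43 for Apobec3, 0.33 for Cbx6 and 0.46 for Cbx7, log2), 4 moved by more and 0 changed sign, under other scalings too. That tolerance is wider than the SE of a difference, and it takes in the shifts without control replicate 2. Many of the 135 were bound to equal the main value, because their setting can change only the SE. Such settings are the filter, the replicate block, only the arrays of the 2 groups, and leaving out an array of the group not compared. For Apobec3 and Cbx6, with 1 probe set each, the mean of probe sets is another. The 4 that moved by more were all of Cbx7. On its dimmer probe set they were 0.34 for CBP-deleted minus control, -0.59 for p300-deleted minus control and 0.93 for CBP-deleted minus p300-deleted. With the mean of both probe sets the last of these was 1.54. The filter on mean log2 of at least 5 leaves Cbx7 out. With only the arrays of the 2 groups compared, genes called were 261, 165 and 1386 for CBP-deleted minus control, p300-deleted minus control and CBP-deleted minus p300-deleted, against 611, 503 and 645 with all 9 arrays. Leaving out 1 array gave 85 (without CBP-deleted replicate 3) to 1131 (without control replicate 3), 65 (without p300-deleted replicate 2) to 854 (without control replicate 3) and 212 (without CBP-deleted replicate 2) to 1041 (without control replicate 2) in that order. Replicate numbers served as names: deviations of the 9 same-numbered pairs correlated at -0.23 to 0.27, 2 of them above 0.1, and the replicate block gave 364, 326 and 524 genes called. The filter gave 679, 569 and 738 of 7453 genes, and every probe set on its own 566, 592 and 758 of 22626. The mean of probe sets gave 513, 356 and 548 of 12393 genes, and no trend 508, 407 and 580. List counts are to be read against these, and they take both directions together. They are out of 40 neighbours (28 with the filter, 66 probe sets), or 100 with 50 genes on each side. Polycomb genes were 26 (25, 57), and deaminases and restriction genes 21 (16, 39). For CBP-deleted minus control, neighbours called were 1 with the 2 groups' arrays, 1 with the replicate block, 7 with 50 genes on each side and 0 to 4 without 1 array. Polycomb genes called there were 0 with every probe set on its own or with the 2 groups' arrays, and 1 with the filter on dim genes or the block. Without 1 array they were 0 to 6, and the 6, without control replicate 3, were 3 higher and 3 lower. With the mean of probe sets 2 were higher and 1 lower, whereas the main fit called 2, both lower. Deaminases and restriction genes called there were 3 with that filter, which leaves Apobec2 out, and 1 to 2 without 1 array. The 3 were all higher, whereas the main fit called 1 lower. For p300-deleted minus control, neighbours called were 0 with the mean of probe sets, every probe set, no trend, the 2 groups' arrays or the block, 3 with 50 genes on each side and 0 to 1 without 1 array. Polycomb genes called there were 2 with every probe set, 0 with the 2 groups' arrays and 0 to 1 without 1 array, and deaminases and restriction genes 0 with the 2 groups' arrays and 0 to 3 without 1 array. For CBP-deleted minus p300-deleted, neighbours called were 0 with the mean of probe sets or no trend, 4 with the filter, 8 with the 2 groups' arrays, 6 with 50 genes on each side and 0 to 6 without 1 array. Polycomb genes called there were 1 to 2 without 1 array, and deaminases and restriction genes 0 with the filter, 2 with the 2 groups' arrays and 1 to 2 without 1 array. The causes of these changes were not tested, apart from the smaller number of arrays or genes where an alternative leaves some out. With 3 arrays a group and dim Cbx7 probe sets, small differences cannot be resolved.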
